A study of Mus musculus with 33 samples.

Results

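Biotin positive cells sorted from mouse liver after intracardiac injection were compared with biotin negative cells sorted from the same tissue. The comparison used 8 of the 33 samples of the series, 4 positive and 4 negative, chosen by their labelled tissue, sort and injection. A barcode counted as a cell from 500 UMIs (unique transcript molecules) and 200 genes upwards, with mitochondrial UMIs making up 15% or less, which left 11778 of the 55366 kept cells of all intracardiac samples. In the study, SAMENT labelling marks the neighbours of injected tumour cells, because an enzyme carried by the tumour cells tags what lies beside them. Tissues were taken after about 10 hours of overnight substrate labelling, dissociated with collagenase, cleared of red cells by lysis, and sorted on biotin. Both groups share the intracardiac injection and the labelling period, and the labels tell them apart by the sort. The labels name no mouse strain, genotype or age, no tumour line and no number of animals behind a sample, so a p-value measures the spread between samples, which may be technical.

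The liver filters blood through sinusoids, which are lined by fenestrated endothelial cells with a strong scavenger activity. Kupffer cells, the resident macrophages of the sinusoids, clear particles and aged red cells and recycle their iron, and can engulf tumour cells that arrive in the blood. NK cells and T cells patrol the same vessels and kill tumour cells through perforin and granzymes.

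The negative replicates 1 to 4 held 3367, 2493, 1556 and 1268 kept cells. The positive replicates 1 to 4 held 1221, 1036, 743 and 94. Each positive sample was smaller than every negative one, with means of 773.5 ± 494 (SD, n = 4) and 2171 ± 954 cells (n = 4, exact two-sided permutation p = 0.0286, the smallest that 4 against 4 allows). The median UMI count per cell ran from 2606 to 5562 in positive and from 3245.5 to 5251 in negative samples (exact p = 0.971, n = 4 each), and total UMIs of kept cells from 482617 to 8498663 and from 6385858 to 19829143. The limits on cells removed 18.2%, 11.7%, 2.88% and 14.5% of barcodes in positive replicates 1 to 4, and 4.70%, 0.439%, 1.08% and 6.90% in the negative ones. This share was higher in the positive sample of 4 of 4 pairs with the same number, but the groups overlapped (n = 4 each, exact p = 0.0857). The liver samples shared 10 barcodes over their 28 pairs. Over all intracardiac samples, the 112 pairs with the same number shared 0 barcodes and the 384 pairs with different numbers shared 325. Positive replicate 2 and positive replicate 4 stand apart, the first by its cell mix and the second by its 94 cells, and values without positive replicate 2 stand beside the results on Kupffer cell-like cells and on the gene lists over all cells.

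The tissue label was checked against marker genes in CPM (a gene's UMIs scaled to a common total for each sample). Kupffer and sinusoidal endothelial markers were detected, while hepatocytes were nearly absent. Alb, the serum albumin of hepatocytes, was at 1.06, 2.05, 0.760 and 1.25 CPM in negative replicates 1 to 4 and at 625, 27.4, 15.1 and 6.22 CPM in positive replicates 1 to 4. The 20 hepatocyte genes summed to 7.82 to 13.5 CPM in negative samples, where 4 to 8 of them were at 0, and to 35.2 to 1446 CPM in positive samples, where 15 of them were at 0 in replicate 4.

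The first question was which cells the biotin sort held. Lymphocytes made up less of the positive sort: B cell-like, T cell-like and NK cell-like cells were each at a smaller share in every positive sample than in any negative one. Kupffer cell-like cells took 80.1% of positive replicate 2 and at most 9.83% of any other sample. Shares of a sample depend on each other, so these cells lower every other share in positive replicate 2. Epithelial-like cells were found almost only in positive samples, and endothelial-like cells were at a larger share in 3 of 4 pairs. Neutrophil-like cells, the most numerous class, spread widely in both sorts.

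NK cell-like cells were at 4.78%, 3.93%, 7.52% and 4.50% of kept cells in negative replicates 1 to 4. They were at 0.655%, 0.193% and 0.808% in positive replicates 1 to 3, and at 0 of 94 cells in positive replicate 4, which allows a share of up to 3.19%. The groups did not overlap, at 0.414% ± 0.380 and 5.18% ± 1.6 (SD, n = 4 each, exact p = 0.0286, adjusted 0.143 by Benjamini-Hochberg over 15 classes), and the positive sample was lower in 4 of 4 pairs. Tested as cell numbers by edgeR's quasi-likelihood test, they fell by 3.39 on the log2 scale (adjusted p = 0.0205), and with the replicate number as a block by 3.55 (adjusted p = 0.00854). They passed in 8 of 8 such fits with 1 sample left out (adjusted p of 0.0177 to 0.0453).

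T cell-like cells were at 9.12%, 6.54%, 6.36% and 6.39% in the negative samples. The positive samples held 2.62%, 0.676%, 2.29% and 2.13%. These shares too did not overlap, at 1.93% ± 0.860 against 7.1% ± 1.35 (n = 4 each, exact p = 0.0286, adjusted 0.143). Taken alone, the larger cluster of this class (411 cells) did not overlap between the sorts (n = 4 each, exact p = 0.0286). The smaller one (297 cells) did (n = 4 each, exact p = 0.286). As cell numbers T cell-like cells missed the threshold by edgeR's quasi-likelihood test (log2 -1.89, adjusted p = 0.141, and 0.115 with the block).

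B cell-like cells were at 22.4%, 11.0%, 24.5% and 13.8% in the negative samples and at 8.93%, 2.03%, 10.4% and 10.6% in the positive ones. The highest positive share, 10 of 94 cells in positive replicate 4, lay just under the lowest negative one, 273 of 2493 cells in negative replicate 2. The gap between the groups thus rests on few cells. The means were 7.99% ± 4.04 and 17.9% ± 6.54 (n = 4 each, exact p = 0.0286, adjusted 0.143). Of the 15 classes tested, these 3 were the ones whose groups did not overlap (20.0%), and 0 passed the exact test after adjustment, for which 4 samples against 4 leave little room. The B cell-like class joins 2 clusters, and taken alone each overlapped between the sorts (n = 4 each, exact p = 0.0571 and 0.543). The edgeR adjusted p for B cell-like numbers was 0.334, and 0.245 with the block.

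**Figure D1:**
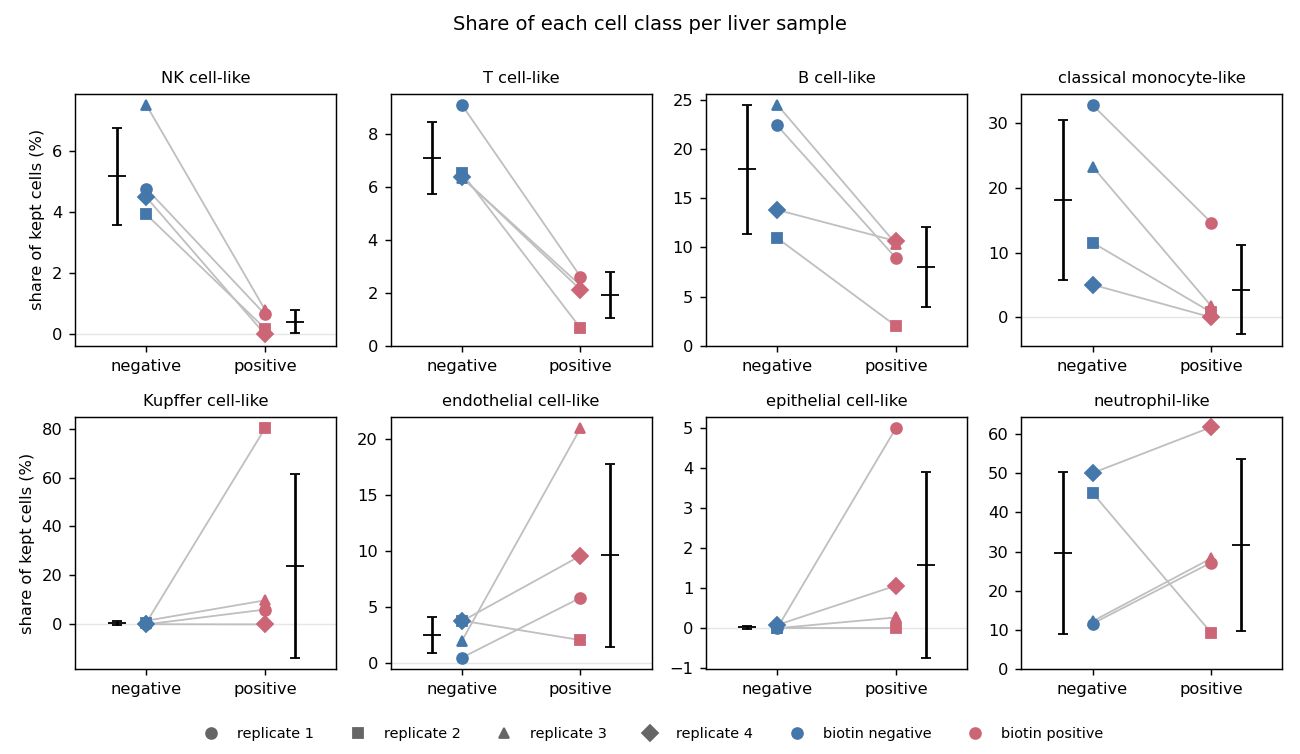
Share of kept cells (percent, vertical axes) of 8 cell classes in biotin negative and biotin positive liver samples; points are samples, lines join samples with the same replicate number, and bars are the mean ± SD (n = 4). B cell-like, T cell-like and NK cell-like shares lie lower in every positive sample than in any negative one, and Kupffer cell-like cells reach 80.1% in positive replicate 2.

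Kupffer cell-like cells were at 0%, 0.722%, 1.48% and 0.0789% in the negative samples and at 6.06%, 80.1%, 9.83% and 0% in the positive ones. In numbers this was 977 positive against 42 negative cells, 830 of them from positive replicate 2, so the cluster is mostly that sample. The count of 0 allows up to 0.0891% in negative replicate 1 and up to 3.19% in positive replicate 4. Shares of 24.0% ± 37.6 and 0.570% ± 0.687 (n = 4 each) missed the threshold (exact p = 0.143, adjusted 0.268). As cell numbers they rose (log2 5.40, edgeR adjusted p = 0.0324, and 5.30 with the block, adjusted p = 0.00271). Without positive replicate 2 the difference of 23.4 percentage points became 4.73, and the numbers no longer passed (log2 3.32, edgeR adjusted p = 0.172). They also missed the threshold without negative replicate 2, negative replicate 4 or positive replicate 1 (edgeR adjusted p of 0.0707, 0.0936 and 0.116).

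Endothelial-like cells, led by the sinusoidal genes Clec4g, Lyve1 and Gpr182, were at 0.446%, 3.77%, 1.93% and 3.71% in the negative samples. The positive samples held 5.81%, 2.03%, 21.0% and 9.57%. Positive replicate 3 was highest, and positive replicate 2, the sample rich in Kupffer cell-like cells, lay inside the negative range. The means of 9.60% ± 8.20 and 2.46% ± 1.59 missed the threshold (n = 4 each, exact p = 0.0857, adjusted 0.257), as did the numbers by edgeR's quasi-likelihood test (log2 1.96, adjusted p = 0.187, and 0.129 with the block).

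Epithelial-like cells numbered 64 in positive and 1 in negative samples. Their cluster was led by Clu, Ttr, Cp, Alb, Krt18 and Cldn3, and 8 epithelial and 7 hepatocyte markers were among its leading genes. Positive replicate 1 held 61 of these cells (5.00% of its cells), positive replicate 3 held 2 and positive replicate 4 held 1, so this cluster too is mostly 1 sample. By share they missed the threshold (1.58% ± 2.32 against 0.0197% ± 0.0394, n = 4 each, exact p = 0.143, adjusted 0.268). As numbers they rose (log2 6.24, edgeR adjusted p = 0.0205, and 6.03 with the block, adjusted p = 0.00566). Without positive replicate 1 this class was too small for the test.

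Classical monocyte-like cells, the Ly6c2 and Ccr2 expressing monocytes that enter tissue from blood, were at 32.8%, 11.6%, 23.3% and 5.05% in the negative samples. The positive samples held 14.7%, 0.772%, 1.75% and 0%. The positive sample was lower in 4 of 4 pairs although the groups overlapped, at 4.30% ± 6.95 and 18.2% ± 12.4 (n = 4 each, exact p = 0.0857, adjusted 0.257). As cell numbers they missed the threshold without the replicate block (log2 -2.01, edgeR adjusted p = 0.257) and fell by 3.14 on the log2 scale with it (adjusted p = 0.0170). Without positive replicate 1 they fell by 4.17 with no block (edgeR adjusted p = 0.0167). Of the 15 classes, 3 passed by edgeR's test of numbers without the block (20.0%) and 4 with it (26.7%), the fourth being these monocytes.

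Plasmacytoid dendritic-like cells were also lower in 4 of 4 pairs, at 0.404% ± 0.451 against 1.72% ± 1.16 (n = 4 each, exact p = 0.114). Neutrophil-like cells were at 11.6% to 50.0% in the negative and at 9.27% to 61.7% in the positive samples, with means of 29.7% ± 20.6 and 31.6% ± 21.9 (n = 4 each, exact p = 1). Nonclassical monocyte-like cells, the vessel-patrolling monocytes led by Ace and Cd300e, were at 2.29%, 2.61%, 3.98% and 0.789% against 6.55%, 0.386%, 4.58% and 2.13%. Their difference of 0.994 percentage points turned to -0.344 and -0.409 when the cells were clustered more coarsely or more finely. Conventional dendritic-like cells, granulocyte precursor-like cells, immature neutrophil-like cells and basophil or mast-like cells overlapped between the sorts, with exact p of 0.171 to 1 (n = 4 each).

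Expression was next compared over all kept cells of a sample, which needs no cell names. No gene passed by edgeR's quasi-likelihood test. The 10 genes named in each direction had the smallest p among those with no overlap between groups and a mean of at least 20 CPM. Those lower in the positive sort included Klrk1, Klrd1 and Trbc1, which encode receptors of NK or T cells. Those higher included Ece1, Arhgef12 and Cald1, and Cp of hepatocytes. In sums over all cells, fewer cells of a type and less RNA per cell cannot be told apart.

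Of 11854 genes tested, 0 passed at an FDR under 0.05 in either direction (0.0%), while 998 higher (8.42%) and 573 lower (4.83%) were under 0.05 before adjustment. DESeq2, which tested 20879 genes, called 438 higher (2.1%) and 125 lower (0.599%). With the replicate block edgeR also called 0. The groups did not overlap for 620 genes that were higher (5.23%) and 153 that were lower (1.29%). Without positive replicate 2 edgeR called 61 of 12294 genes, 49 higher (0.399%) and 12 lower (0.0976%), and without positive replicates 2 and 4 it called 3.

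Klrk1 (ENSMUSG00000030149) encodes NKG2D, an activating receptor of NK and T cells that recognises stress ligands on tumour cells. It was at 38.6, 24.3, 42.3 and 33.7 CPM in negative replicates 1 to 4 and at 10.1, 11.0, 10.8 and 6.22 CPM in positive replicates 1 to 4. The groups did not overlap, and the difference of -2.03 on the log2 scale (SE 0.22) missed the threshold (edgeR adjusted p = 0.0711, and 0.0988 with the block). Positive replicate 4 held 482617 UMIs in all, so its 6.22 CPM here stands for only a few molecules. The same holds for its levels of a few CPM in the genes that follow.

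Klrd1, which encodes CD94 of the NK inhibitory and activating receptor pairs, was at 74.6, 63.9, 103 and 52.1 CPM in the negative and at 24.1, 4.42, 17.8 and 6.22 CPM in the positive samples. Ccl5, a chemokine stored and released by cytotoxic lymphocytes, was at 559, 519, 1098 and 886 CPM against 84.5, 40.9, 277 and 53.9 CPM. Hopx, which encodes a homeodomain protein, was at 168, 253, 280 and 103 CPM against 66.2, 50.2, 56.8 and 29.0 CPM. For all 3 genes the highest positive sample lay below the lowest negative one. The log2 differences were -2.60 (SE 0.48) for Klrd1, -2.97 (SE 0.62) for Ccl5 and -2.17 (SE 0.31) for Hopx, with edgeR adjusted p of 0.120, 0.130 and 0.0936. In the negative sort 53.6% of Klrd1 and 76.3% of Ccl5 UMIs lay in NK cell-like cells, whereas 71.4% of Hopx UMIs lay in classical monocyte-like cells, which were also lower in 4 of 4 pairs.

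The other genes named as lower were Txk, a T cell and NK cell kinase, Ptpn22, a phosphatase that restrains antigen receptor signalling and had 27.0% of its negative-sort UMIs in B cell-like and 21.8% in classical monocyte-like cells, Ms4a4b, Cd7, Il2rb, a receptor chain for IL-2 and IL-15, and Trbc1, a constant region of the T cell receptor. Their log2 fold changes lay between -3.01 (Cd7) and -1.21 (Ptpn22). All 6 missed the threshold by edgeR's quasi-likelihood test, with adjusted p of 0.120 (Txk and Ptpn22) to 0.141 (Trbc1).

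On the other side, Ece1 (ENSMUSG00000057530), the endothelin-converting enzyme, was at 12.6, 12.9, 12.2 and 12.8 CPM in negative replicates 1 to 4. It was at 32.8, 59.6, 60.3 and 41.4 CPM in positive replicates 1 to 4. The negative samples were nearly equal and every positive sample was higher, by 1.72 on the log2 scale (SE 0.24), which missed the threshold (edgeR adjusted p = 0.0936, and 0.0988 with the block).

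Arhgef12, an activator of the small GTPase RhoA, was at 6.40, 13.9, 17.2 and 12.1 CPM against 62.8, 85.4, 70.2 and 35.2 CPM (log2 2.14, SE 0.33, edgeR adjusted p = 0.0969). Cald1, the actin-binding protein caldesmon, was at 1.06, 3.15, 2.03 and 4.23 CPM against 81.1, 23.7, 46.3 and 6.22 CPM (log2 3.72, SE 0.69, edgeR adjusted p = 0.120). Cp, the copper-carrying ferroxidase ceruloplasmin that hepatocytes secrete, was at 0.454, 0.867, 1.65 and 1.25 CPM against 355, 8.12, 16.4 and 41.4 CPM (log2 6.51, SE 1.32, edgeR adjusted p = 0.123). Positive replicate 1, the sample with 61 epithelial-like cells, was highest for Cald1 and Cp.

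The other genes named as higher were Cers4, a ceramide synthase, Crim1, a transmembrane regulator of BMP ligands, the actin-binding Lima1, Galnt2, which starts O-linked glycosylation, Crip2 and Wwc2. Their log2 fold changes lay between 1.01 (Galnt2) and 3.05 (Crip2), and edgeR adjusted p was 0.120 to 0.123. Groups did not overlap for any of the 20 named genes, since the rule for naming them asked for that. With positive replicate 2 left out, 12 genes fell, among them the receptors Klrb1a, Klrb1c, Klrc1, Klrd1 and Klrk1 of NK cells and the CD3 chains Cd3e and Cd3g. The 49 that rose then included Krt18, Cldn3, Clu, Cp and the retinoid enzyme gene Aldh1a1, which are epithelial or hepatic, and Cav1, Bgn and Fstl1, which are expressed by vessel or stromal cells. Of these 8, Krt18, Cldn3, Aldh1a1, Cav1 and Fstl1 were too low to be tested with all samples and passed the filter on counts through the positive group. The epithelial and hepatic ones were highest in positive replicate 1, with Cldn3 at 168, 2.96 and 8.29 CPM and Aldh1a1 at 73.4, 3.23 and 6.22 CPM in positive replicates 1, 3 and 4.

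**Figure D2:**
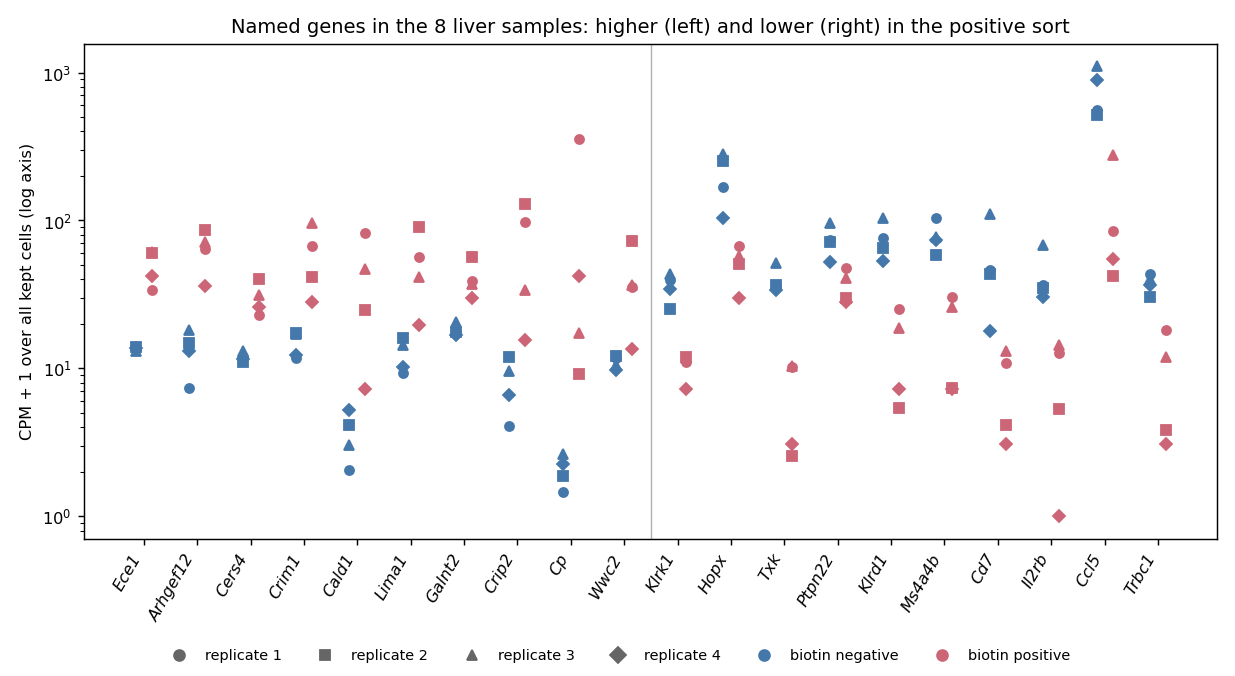
Level of the 20 named genes over all kept cells (CPM + 1, log axis) in each liver sample, with biotin negative and biotin positive samples marked apart. Klrk1 lies between 24.3 and 42.3 CPM in negative and between 6.22 and 11.0 CPM in positive samples, and Ece1 lies between 12.2 and 12.9 CPM in negative and between 32.8 and 60.3 CPM in positive samples.

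The marker and pathway lists covered the same cell types. The 12 genes of the NK cell list were all tested and all at a log2 fold change below 0, with a median of -2.70 where the median over all tested genes was 0.02. None passed by edgeR's quasi-likelihood test. For 9 of the 12 the groups did not overlap (1.29% of all genes tested were lower without overlap), 12 were under 0.05 before adjustment (4.83% of all), and DESeq2 called 8 of them lower (0.599% of all). Without positive replicate 2 the median was -2.16 and edgeR called 3 of the 12 lower (0.0976% of all genes), but 0 without positive replicates 2 and 4. Summed over the list, the level was 535, 344, 400 and 475 CPM in negative replicates 1 to 4 and 150, 21.2, 62.4 and 14.5 CPM in positive replicates 1 to 4. Gzma, a granzyme, was at 298, 196, 169 and 272 CPM against 89.1, 5.13, 18.3 and 0 CPM, and Ncr1, the NKp46 receptor, was at 6.46 to 22.9 CPM against 0 to 5.38 CPM. The Ly49 genes of this list have near-identical paralogs, which makes their levels uncertain.

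The 12 genes of the T cell list were likewise all below 0, with a median of -1.94, no overlap for 9 (1.29% of all genes), an unadjusted p under 0.05 for 11 (4.83%), and 10 called lower by DESeq2 (0.599%). Without positive replicate 2 the median was -1.59 and edgeR called 2 of the 12 lower (0.0976% of all genes), where it called 0 with all samples and 0 without positive replicates 2 and 4. Cd3g, a chain of the T cell receptor complex, was at 50.4, 30.3, 42.7 and 38.5 CPM against 16.6, 2.42, 13.5 and 4.14 CPM. Of 12 cytotoxic effector genes tested, 11 were below 0 with a list median of -2.47, and the groups did not overlap for 6, namely Gzma, Prf1, Fasl, Ccl5, Ctsw and Klrd1 (1.29% of all genes). The list median was -2.02 without positive replicate 2. Prf1, perforin, was at 12.2 to 25.4 CPM in negative and at 0.428 to 10.2 CPM in positive samples. Nkg7, a cytotoxic granule gene that is also on the granulocyte precursor list, overlapped between the groups and was highest in positive replicate 3, at 198 CPM.

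The B cell list was below 0 for 12 of 12 genes with a median of -1.06, and groups did not overlap for 2 of them, Ighd and Ebf1. Of 10 lymphocyte recruitment genes tested, 2 did not overlap and both were lower, Ccl5 and the chemokine receptor Cxcr6. Among 14 checkpoint genes tested the median was 0.05, and 1 gene was lower (Lag3) and 1 higher (Nectin2) without overlap, too few to tell the list from all tested genes, of which 1.29% and 5.23% did so. That median rested on positive replicate 2: without it, it was -0.39 over 15 genes, 5 above and 10 below 0. Of 11 MHC class II genes, 10 were below 0 with a median of -0.72 and all overlapped between the groups. Medians without positive replicate 2 were -0.72 for the B cell, -0.79 for the recruitment and -0.63 for the class II list.

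The Kupffer cell list summed to 37.3, 437, 236 and 89.1 CPM in the negative samples and to 797, 18653, 1300 and 122 CPM in the positive ones. The groups overlapped, since positive replicate 4 lay below negative replicates 2 and 3, and positive replicate 2 was far above the rest. The 12 genes were all above 0, with a median of 4.72, and 0 passed by edgeR's quasi-likelihood test. Before adjustment 12 were under 0.05 (8.42% of all genes tested were so and higher), and DESeq2 called 2 (2.1% of all). A single gene of the 12 was without overlap, a share near the 5.23% of all genes. Without positive replicate 2 the median was 2.12 and 3 of the 12 were under 0.05. Clec4f, a lectin found on Kupffer cells, was at 0.403, 52.3, 43.1 and 0 CPM against 76.1, 2577, 285 and 0 CPM. Slc40a1, the iron exporter ferroportin, was the gene without overlap, at 18.4, 89.5, 48.0 and 67.8 CPM against 160, 1856, 252 and 93.2 CPM (log2 3.05, SE 0.95, edgeR adjusted p = 0.234, and log2 1.34 with adjusted p = 0.323 without positive replicate 2). In positive replicate 4, where no Kupffer cell-like cell was found, 9 of the 12 genes were at 0.

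The scavenger receptor and complement list was above 0 for 20 of 21 genes, with a median of 3.03 and an unadjusted p under 0.05 for 18 (8.42% of all genes). Groups did not overlap for 1 of the 21, Stab1, a share near the 5.23% of all genes. The median was 1.47 and 5 were under 0.05 without positive replicate 2. Of the 12 heme and iron recycling genes 6 had an unadjusted p under 0.05, all higher (8.42% of all genes), and 2 without positive replicate 2 (8.35% of all), where the list median went from 0.82 to 0.13. A count of 2 among 12 is too small to tell the list from all genes. Hmox1, the heme-degrading oxygenase, was at 70.7, 237, 73.9 and 44.3 CPM against 178, 4151, 178 and 66.3 CPM, so its groups overlapped and positive replicate 2 was far above the rest. Its log2 fold change of 3.11 became 0.20 without that sample. The interferon-stimulated list, with 20 genes tested and a median of 0.20 (0.18 without positive replicate 2), held no gene without overlap.

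All 15 endothelial genes were above 0 with a median of 1.74, none passed by edgeR's quasi-likelihood test, and 9 had an unadjusted p under 0.05 (8.42% of all genes). The median was 1.94 and 12 were under 0.05 without positive replicate 2. Summed over the list the groups did not overlap, at 85.0, 424, 208 and 262 CPM in negative replicates 1 to 4 and at 502, 747, 2021 and 810 CPM in positive replicates 1 to 4. The single gene without overlap, a share near the 5.23% of all genes, was Pecam1, the adhesion molecule CD31, at 26.8 to 33.9 CPM against 40.2 to 111 CPM. Stab2, a scavenger receptor of sinusoidal endothelium, was at 2.37, 23.6, 7.98 and 11.6 CPM against 27.2, 39.6, 90.4 and 22.8 CPM. Of the 20 hepatocyte genes, 6 were tested, all above 0, and groups did not overlap for 3 (Alb, Apoa2 and Rbp4). A gene too low for testing in one sort could pass the filter on counts through the other, so these 6 do not stand for the list. Their median log2 fold change was 4.88, and 5.27 without positive replicate 2.

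Red cell genes moved with part of the positive sort. The erythroid list summed to 16.1, 92.9, 10.6 and 6.73 CPM in the negative samples and to 2001, 713, 8.34 and 43.5 CPM in the positive ones, and the part of red cell RNA in the differences above was not tested.

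**Figure D3:**
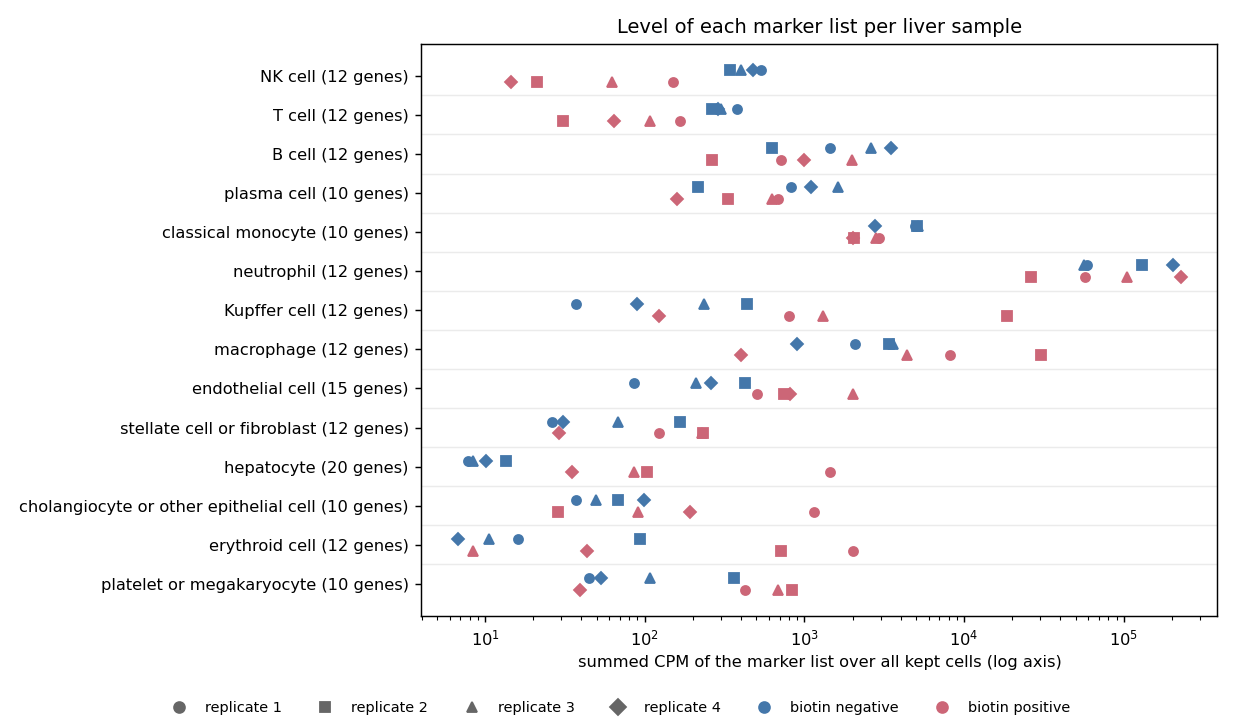
Summed level (CPM, log axis) of 14 marker lists in each liver sample, with biotin negative and biotin positive samples marked apart. NK and T cell lists lie lower, and endothelial and hepatocyte lists higher, in every positive sample than in any negative one, while the Kupffer list reaches 18653 CPM in positive replicate 2.

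The next question was whether cells of 1 class differed between the sorts. Each class was summed per sample and fitted alone, using samples with at least 20 cells of the class. By edgeR's quasi-likelihood test genes passed in 1 of 5 classes, the nonclassical monocyte-like cells, where 30 genes rose, among them collagens, Dcn and Epcam of stromal and epithelial cells, and 2 fell, H2-Ab1 and Cd74. No gene passed once cells that held stromal or epithelial markers were left out, a choice that by itself lowers genes of those lists. Neither of the 2 that fell passed then or at a limit of 10 cells a sample, where H2-Ab1 was at log2 -2.14 and -2.23 and Cd74 at -1.55 and -1.77. In neutrophil-like, B cell-like, endothelial-like and granulocyte precursor-like cells 0 genes passed (0.0%).

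Nonclassical monocyte-like cells could be compared in negative replicates 1, 2 and 3 (77, 65 and 62 cells) and positive replicates 1 and 3 (80 and 34 cells). When the cells were clustered more coarsely or more finely this class held 206 or 229 cells in place of 334, with 9 of positive replicate 3 either way, so that positive replicate 1 was the only positive sample with the needed number. Whether the calls hold in the smaller class was not tested. At the coarser setting 84 cells joined classical monocyte-like cells and 39, with a median of 8044 UMIs, joined granulocyte precursor-like cells. Of these 39, 4, 1 and 2 came from negative replicates 1 to 3 and 18 and 10 from positive replicates 1 and 3. At the finer setting 110 of the 334 cells joined an unnamed cluster led by Gm42418 and Nedd4, namely 25, 8 and 12 cells of negative replicates 1 to 3 and 30 and 24 of positive replicates 1 and 3. These had a median of 1902.5 UMIs and 5.61% mitochondrial UMIs, against 3353 and 2.16% for the 222 that kept the name. Nedd4 and Errfi1, both among the leading genes of that cluster, were also among the 30 that rose, and the part of these cells in the calls was not tested. Of 4335 genes tested, 30 rose (0.692%) and 2 fell (0.0461%), and with the replicate block 35 rose and 6 fell. In the block fit only numbers 1 and 3, which have both sorts here, inform the difference, and little is left to measure the spread. With at least 10 cells a sample 32 rose and 0 fell, and without the cells of the highest doublet scores 22 rose and 1 fell. Before adjustment 273 higher (6.3%) and 223 lower (5.14%) were under 0.05, and the groups were apart for 430 higher (9.92%) and 865 lower genes (20.0%). The count was 0 without negative replicate 1 or negative replicate 2 and 16 when negative replicate 3 was dropped. Dropping positive replicate 1 gave 39 and dropping positive replicate 3 gave 87, in fits with a single positive sample, which is assumed to vary like the negative ones.

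H2-Ab1, the beta chain of an MHC class II molecule that presents peptides to CD4 T cells, was at 640, 429 and 617 CPM in negative replicates 1 to 3 and at 66.6 and 118 CPM in positive replicates 1 and 3. Every positive value was under every negative one, and the gene fell by 2.53 on the log2 scale (SE 0.41, edgeR adjusted p = 0.0293, and 0.0106 with the block). It missed the threshold at 10 cells a sample (log2 -2.23, edgeR adjusted p = 0.371), without the highest doublet scores (0.0599) and with any 1 sample but positive replicate 3 left out (0.0814 to 0.214). Cd74, the invariant chain that chaperones class II molecules, was at 2172, 1395 and 1579 CPM against 357 and 363 CPM, and fell by 2.09 (SE 0.36, edgeR adjusted p = 0.0402, and 0.00878 with the block). It missed the threshold at 10 cells a sample (log2 -1.77, edgeR adjusted p = 0.481), without the highest doublet scores (0.122) and without any 1 of the 5 samples (0.0977 to 0.164). All 7 class II genes tested were lower without overlap (20.0% of all genes of the class), with a median log2 fold change of -1.90 against -0.01 over all genes of the class.

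H2-Aa and H2-Eb1, the other class II chains, were at 492 to 763 and 263 to 513 CPM in negative samples and at 143 to 157 and 58.9 to 92.9 CPM in positive ones. They missed the threshold (edgeR adjusted p = 0.0679 and 0.0906) and passed with the block (0.0178 and 0.0256), a fit that rests on numbers 1 and 3. Cxcl2, a neutrophil-attracting chemokine, also passed only with the block (edgeR adjusted p = 0.0826 without and 0.0166 with it), at 918 to 1243 CPM against 98.2 to 262 CPM. Spi1, the myeloid transcription factor PU.1, was at 562, 681 and 584 CPM against 204 and 246 CPM and missed the threshold with or without the block (edgeR adjusted p = 0.147 and 0.135). Plekhf2, Vsir and Cd37 were also lower without overlap and missed it, with edgeR adjusted p of 0.123 to 0.207. Without cells holding stromal or epithelial markers Spi1 was at 414 and 395 CPM in the positive samples, and its log2 fold change went from -1.28 to -0.57. Those of Vsir, Plekhf2, Cd37 and Cxcl2 then went from -1.43 to -0.76, -1.92 to -1.16, -2.08 to -1.24 and -2.32 to -1.72.

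The genes that rose included collagens, other stromal genes and epithelial genes. Those at 0 or at low levels in every negative sample, with Dcn, Epcam and Mt2 among them, passed the filter on counts through the positive group. They could therefore be called only as higher. Col3a1, a fibrillar collagen of stromal cells, was at 0 in all 3 negative samples and at 240 and 324 CPM in the positive ones, at least 66.8-fold higher when 3 counts over the negative group are taken as the floor. Dcn, the stromal proteoglycan decorin, was at 0, 0 and 10.9 CPM against 678 and 2927 CPM (log2 9.25, SE 0.94, edgeR adjusted p = 0.00826). Epcam, an epithelial adhesion molecule, was at 0, 3.70 and 0 CPM against 216 and 58.9 CPM (log2 6.67, SE 0.91, edgeR adjusted p = 0.0126).

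The floor gave bounds of at least 33.4-fold for Ppic, 24.6-fold for Cav1, 22.4-fold for Tm4sf1, 19.3-fold for Pcolce, 17.6-fold for the collagen chaperone Serpinh1 and 16.7-fold for Col6a1. Of these, Col6a1 lost its call with the block (edgeR adjusted p = 0.0467 without and 0.0656 with it). Mt2, a metal-binding metallothionein, was at 5.46 to 22.2 CPM against 121 and 3143 CPM (log2 6.86, SE 1.16, edgeR adjusted p = 0.0354).

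Part of the cells held such genes. In the nonclassical cluster, at least 2 genes of the stromal or of the epithelial list were found in 13 of 80 cells of positive replicate 1, 8 of 34 of positive replicate 3, 3 of 77 of negative replicate 1 and none of negative replicates 2 and 3. Leaving out these cells took the class from 495364 to 244175 UMIs in positive replicate 1. It went from 101806 to 63237 in positive replicate 3 and from 334230 to 297847 in negative replicate 1. Without them edgeR called 0 of 3921 genes, with 30 higher (0.765%) and 35 lower (0.893%) under 0.05 before adjustment, and groups apart for 272 higher genes (6.94%). Of the 32 genes called before, 6 were still tested, 5 of them in the same direction. The class II genes were still lower without overlap for 7 of 7 (9.16% of all genes tested then), 5 with an unadjusted p under 0.05, with a median of -1.46. H2-Ab1 was then at 678, 429 and 617 CPM against 135 and 111 CPM (log2 -2.14, SE 0.42), but no longer passed (edgeR adjusted p = 1.00).

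**Figure D4:**
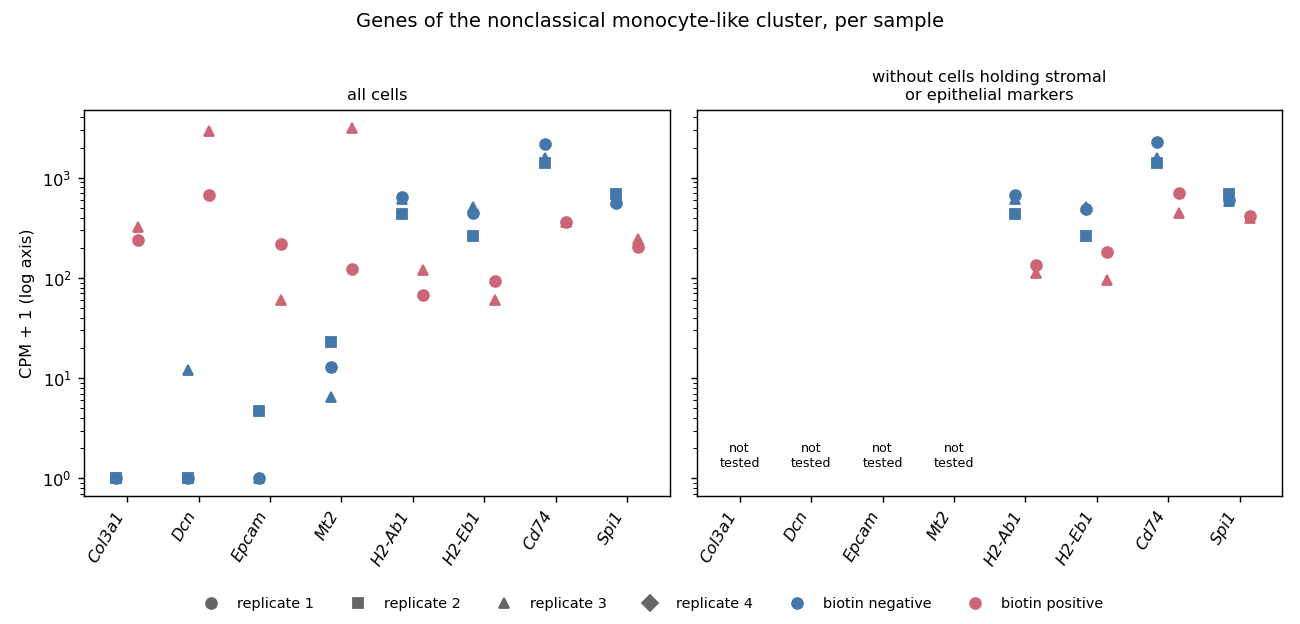
Level (CPM + 1, log axis) of 8 genes in nonclassical monocyte-like cells of negative replicates 1 to 3 and positive replicates 1 and 3, for all cells of the cluster and without cells that held stromal or epithelial markers. H2-Ab1 stays between 429 and 678 CPM in negative and between 66.6 and 135 CPM in positive samples in both sets, while Col3a1, Dcn, Epcam and Mt2 were not tested in the second.

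Neutrophil-like cells could be compared in all 8 samples. edgeR called 0 of 5076 genes, with 43 higher (0.847%) and 24 lower (0.473%) under 0.05 before adjustment, and DESeq2 called 0. There was no overlap between groups for 47 higher (0.926%) and 18 lower genes (0.355%). Vegfa, the vascular growth factor, was at 24.9, 18.2, 18.1 and 20.4 CPM against 29.4, 25.2, 35.0 and 43.9 CPM, a small difference with no overlap (log2 0.62, SE 0.24, edgeR adjusted p = 1.00). Cd80, a costimulatory ligand for T cells, was at 26.1 to 44.4 CPM against 46.2 to 75.6 CPM (log2 0.56, SE 0.24). With the replicate block 3 genes rose by edgeR's quasi-likelihood test: Gadd45b, a stress-induced gene (adjusted p = 0.00492), and the mitochondrial genes mt-Nd2 (0.0437) and mt-Nd3 (0.00644). Gadd45b was higher in the positive sample of 4 of 4 pairs, at 1249, 535, 199 and 388 CPM against 1900, 665, 456 and 727 CPM. The class joins 3 clusters, and the one with Gadd45b among its leading genes made up 56.0%, 23.9%, 22.6% and 55.8% of it in negative and 65.1%, 19.8%, 40.0% and 70.7% in positive replicates 1 to 4. Within that cluster Gadd45b was at 2419, 1754, 592 and 865 CPM against 3024, 1691, 1003 and 1380 CPM, higher in 3 of 4 pairs.

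B cell-like cells gave 0 of 5847 genes in 4 negative and 3 positive samples, with 54 higher (0.924%) and 62 lower (1.06%) under 0.05 before adjustment, 1 called by DESeq2 and 4 with the block. No overlap was seen for 117 higher (2.0%) and 132 lower genes (2.26%). The 4 were Plac8, Ighg2b, Ly6c2 and a kappa variable segment, and Plac8 was at 471 to 1066 CPM in negative and at 1230 to 1591 CPM in positive samples (edgeR adjusted p = 1.00 without and 0.0110 with the block). Cd9, a tetraspanin of marginal zone and innate-like B cells, was at 38.1 to 58.7 CPM against 79.3 to 165 CPM and missed the threshold in both fits (edgeR adjusted p = 1.00 and 0.371). Of the 2 clusters in this class the smaller made up 5.84%, 3.66%, 57.2% and 61.1% of it in negative replicates 1 to 4 and 29.4%, 9.52% and 61.0% in positive replicates 1 to 3. In the larger one Cd9 overlapped between the sorts, at 9.72 to 50.8 CPM against 13.5 to 125 CPM.

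Endothelial-like cells gave 0 of 3148 genes in 3 samples of each sort, with 25 higher (0.794%) and 31 lower (0.985%) under 0.05 before adjustment and 0 called by DESeq2. The sorts lay apart for 131 higher (4.16%) and 93 lower genes (2.95%). Hes1, a target of Notch signalling, was at 333, 313 and 274 CPM in negative replicates 2 to 4 and at 92.8, 146 and 210 CPM in positive replicates 1 to 3 (log2 -1.03, SE 0.33, edgeR adjusted p = 1.00). Msr1, a scavenger receptor, was at 406 to 808 CPM against 278 to 386 CPM (log2 -0.86, SE 0.31, edgeR adjusted p = 1.00). With the block 8 genes passed by edgeR's quasi-likelihood test, 5 higher and 3 lower, among them Rspo3, a Wnt signal enhancer made by central vein endothelium (log2 1.61, adjusted p = 0.00441, and 0.72 with adjusted p = 1.00 without the block). Its groups overlapped, at 111, 66.0 and 649 CPM in negative replicates 2 to 4 against 420, 125 and 781 CPM in positive replicates 1 to 3. Of the 2 pairs with both sorts, number 2 differed little and number 3 carried the difference. Igkc and Retnlg, genes of B cells and neutrophils, were also among the 8.

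Granulocyte precursor-like cells, whose cluster was led by the division genes Top2a and Mki67 beside Elane, gave 0 of 6910 genes in 4 negative and 2 positive samples. Before adjustment 158 higher (2.29%) and 154 lower (2.23%) were under 0.05, DESeq2 called 0, and groups did not overlap for 605 higher (8.76%) and 187 lower genes (2.71%). Myb, a transcription factor of blood progenitors, was at 28.9, 59.4, 67.4 and 11.0 CPM against 79.0 and 287 CPM in positive replicates 1 and 3 (log2 2.21, SE 0.62, edgeR adjusted p = 0.993). When positive replicate 1 was left out edgeR called 26 genes, and when positive replicate 3 was left out 3, in fits whose single positive sample is assumed to vary like the negative ones.

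Kupffer cell-like, T cell-like and classical monocyte-like cells were too few for the limit of 20 cells and were compared with at least 10 cells a sample, a limit chosen after seeing the data. Kupffer cell-like cells came from negative replicates 2 and 3 (18 and 23 cells) and positive replicates 1 to 3 (74, 830 and 73 cells). edgeR called 0 of 4095 genes, 62 higher (1.51%) and 68 lower (1.66%) were under 0.05 before adjustment, and DESeq2 called 0. Samples of the sorts did not overlap for 442 higher (10.8%) and 436 lower genes (10.6%). Clec4f was at 3253 and 3455 CPM against 2550, 3057 and 4424 CPM, so its groups overlapped, and the 12 Kupffer genes had a median log2 fold change of 0.02 where all tested genes had -0.0020. Of these 12, 1 was higher and 1 lower without overlap.

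In these cells H2-Eb1 was at 645 and 628 CPM in the negative and at 351, 236 and 174 CPM in the positive samples (log2 -1.31, SE 0.35, edgeR adjusted p = 0.999, and 0.113 with the block). H2-Ab1 was at 896 and 792 CPM against 488, 363 and 322 CPM (log2 -1.09, SE 0.31, edgeR adjusted p = 0.999). Both were lower in every positive sample, as were H2-Aa and Cd74, 4 of 7 class II genes tested (10.6% of all genes were lower without overlap). Of the heme and iron genes, Slc40a1, Blvra and Blvrb were higher without overlap, 3 of 11 tested (10.8% of all genes), and Slc40a1 was at 1528 and 1960 CPM against 3347, 2187 and 2562 CPM.

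Of 12 mitochondrially encoded genes 10 were higher without overlap (10.8% of all genes), and mt-Nd1 was at 751 and 540 CPM against 2471, 1273 and 1188 CPM (log2 1.37, SE 0.40, edgeR adjusted p = 0.999). Positive replicates 1 and 2 were also samples from which the mitochondrial limit removed more barcodes, and its part in this was not tested. The median UMI count of a Kupffer cell-like cell was 6279.5 in positive replicate 2 and 2149 to 3199 in the other 4 samples. With the block a single gene passed, Gm42418 (edgeR adjusted p = 0.0338), a gene model outside the naming rule that was named after its value was seen.

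In T cell-like cells edgeR called 0 of 4026 genes (0.0%) over 4 negative and 2 positive samples, with 90 higher (2.24%) and 99 lower (2.46%) under 0.05 before adjustment and 1 called by DESeq2. The groups did not overlap for 387 higher (9.61%) and 425 lower genes (10.6%). G0s2, an inhibitor of triglyceride lipase that is abundant in neutrophils, was at 132, 256, 207 and 98.6 CPM against 636 and 1638 CPM (log2 2.66, SE 0.44, edgeR adjusted p = 0.478, and 0.00818 with the block). With the block 7 genes rose, among them the neutrophil and myeloid genes Retnlg, Cxcl2 and Cd14, and C1qa. Retnlg was at 776, 2719, 1064 and 240 CPM in the negative samples and at 2109 and 13387 CPM in positive replicates 1 and 3. The larger cluster of this class held more Retnlg than the smaller. It made up 40.7%, 45.4%, 94.9% and 100% of the class in negative replicates 1 to 4. In positive replicates 1 and 3 it made up 50.0% and 88.2%. Within it Retnlg overlapped between the sorts, at 240 to 4843 CPM against 3239 and 14511 CPM. G0s2 was there at 98.6 to 455 CPM against 955 and 1775 CPM. Neutrophil-like cells made up 11.6%, 44.9%, 12.2% and 50.0% of negative replicates 1 to 4 and 27.2% and 28.3% of positive replicates 1 and 3. The part of neutrophil RNA was not tested. Rasgrp1, which relays T cell receptor signals to Ras, was at 98.6 to 117 CPM against 40.4 and 31.8 CPM (log2 -1.51, SE 0.37, edgeR adjusted p = 0.895).

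Classical monocyte-like cells gave 0 of 8745 genes by edgeR and 0 by DESeq2 in 4 negative and 2 positive samples, with 42 higher (0.48%) and 113 lower (1.29%) under 0.05 before adjustment. Their groups were apart for 742 higher (8.48%) and 567 lower genes (6.48%). Slc7a11, a cystine transporter, was at 38.3, 144, 72.1 and 103 CPM against 22.7 and 10.7 CPM (log2 -2.14, SE 0.61, edgeR adjusted p = 1.00). The samples drew on different clusters of this class: 1 cluster held 93.2%, 4.17%, 12.1% and 56.3% of it in negative replicates 1 to 4 and 96.1% and 7.69% in positive replicates 1 and 3. The part of this mix in the difference was not tested. With the block 4 genes passed, Cd5l, C1qa and Lyz1 higher and Igkc lower, in a fit that rests on numbers 1 and 3. Lyz1 was at 5.39 and 2.70 CPM in negative replicates 1 and 3 against 37.0 and 0 CPM in the positive ones. Cd5l was at 0.917 and 1.93 CPM against 3.02 and 139 CPM, the last from 13 cells. Over all samples Cd5l, Lyz1 and Igkc overlapped between the sorts. The part of RNA from other cells was not tested.

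The last comparison asked whether the difference between the sorts was another one in liver than in bone, brain and lung, over all 32 intracardiac samples. The genes with the smallest p on the higher side included hepatic and epithelial ones, such as Alb, Krt18, Clu and Tff2, and no gene passed without the replicate block. Alb, Clu and Tff2 were each highest in positive replicate 1. Of 13963 genes tested edgeR called 0 (0.0%), while 518 (3.71%) were under 0.05 before adjustment and DESeq2 called 18. With the block 1 gene passed, Tff2, and without positive replicate 2 there were 6.

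Tff2, a secreted trefoil peptide of mucous epithelium, was at 3644 CPM in positive replicate 1 and at no more than 1.88 CPM in any other liver sample. Its contrast of liver with the other tissues was 10.3 on the log2 scale (SE 2.56, edgeR adjusted p = 0.372, and 2.18e-07 with the block), a value that rests on 1 sample. Krt18, an epithelial keratin, had a log2 difference between sorts of 6.84 in liver, 1.71 in bone, 0.09 in brain and -0.34 in lung (contrast 6.35, SE 1.28, edgeR adjusted p = 0.185). Its level was 284, 0.285, 14.8 and 45.6 CPM in positive replicates 1 to 4 and 0.315 to 1.01 CPM in the negative samples, so that positive replicate 1 was highest and positive replicate 2 lay under the negative range. With single samples left out the contrast ran from 4.23 without positive replicate 1 to 6.82 without positive replicate 2, where it passed (edgeR adjusted p = 0.0027). Clu, the chaperone clusterin, was at 2183 CPM in positive replicate 1, 38.5 in positive replicate 3 and 128 in positive replicate 4, and at 1.42 to 3.29 CPM in the other 5 samples.

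Galnt2 was higher in all 4 positive liver samples, at 29.0 to 55.3 CPM against 15.8 to 19.6 CPM. Its log2 difference was 1.01 in liver, 0.26 in bone, -0.03 in brain and 0.03 in lung (contrast 0.92, SE 0.23, edgeR adjusted p = 0.372). Fabp7, a fatty acid-binding protein, was at 1030 CPM in positive replicate 2 and at 0 to 156 CPM in the other liver samples (contrast 5.14, SE 1.29, edgeR adjusted p = 0.372). Alb had a log2 difference of 6.71 in liver and of -1.55 to 1.04 in the other tissues (edgeR adjusted p = 0.301).

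Among genes lower in liver than elsewhere, Runx1, a transcription factor of blood cells, had a log2 difference of -0.39 in liver, 0.04 in bone, 1.08 in brain and 1.54 in lung (contrast -1.27, SE 0.27, edgeR adjusted p = 0.187, and 0.0561 with the block). Its levels within liver overlapped, at 57.0 to 88.9 CPM in negative and 47.7 to 94.9 CPM in positive samples. Cyb561a3, a lysosomal iron reductase, had a log2 difference of -0.76 in liver and of -0.42, -0.05 and 2.77 in bone, brain and lung (contrast -1.53, SE 0.31, edgeR adjusted p = 0.185). For both genes the largest difference among the 4 tissues was the one in lung, where the positive sort was higher.

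**Figure D5:**
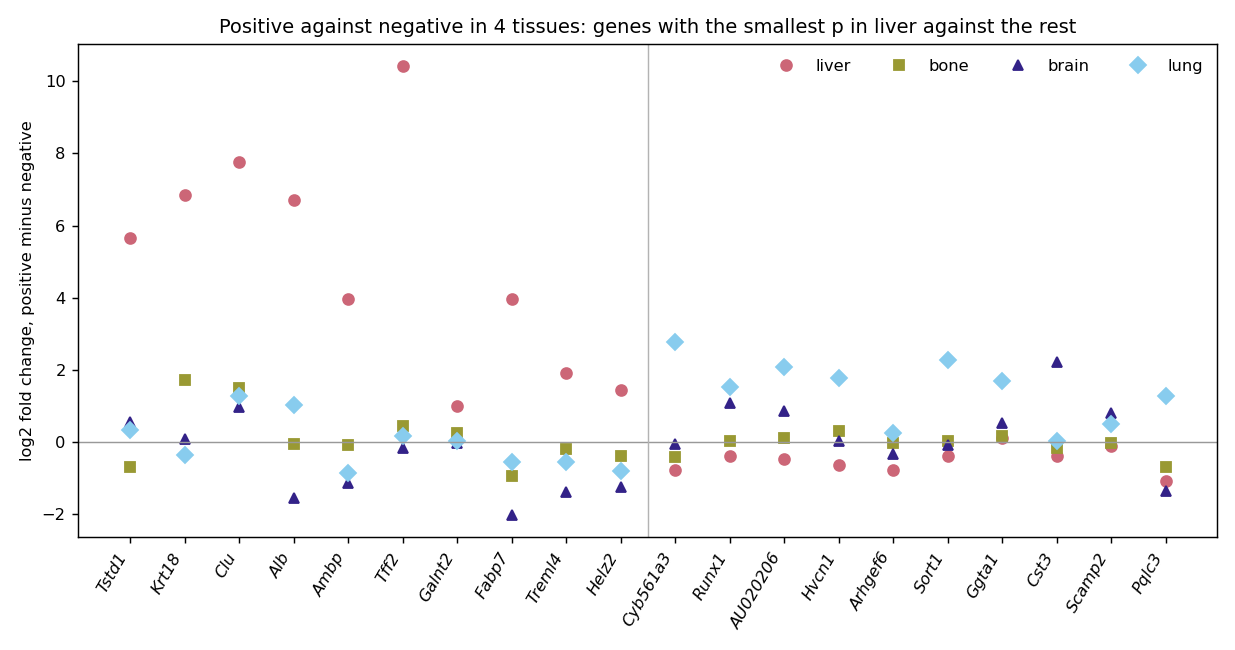
Log2 fold change of biotin positive over biotin negative sums (vertical axis) in liver, bone, brain and lung for 20 genes, the 10 with the smallest p in each direction of the contrast of liver with the mean of the other tissues. Clu, Krt18, Alb and Tff2 lie above 6 in liver, and Runx1 and Cyb561a3 lie highest in lung.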

How the data were processed

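Single-cell gene expression was measured in 8 liver samples. The authors deposited a matrix of UMI counts for each sample, made with cellranger 6.1.2 per the file headers. Samples were multiplexed with CellPlex tags and libraries read from the 3' end, per the labels' protocols. The submitters' processing notes name mm10, Cell Ranger and Seurat, without their roles, and intron counting is not given in the sources used here. Each matrix listed 32285 genes. In negative replicate 1 the median cell had 50.6% of its tag UMIs on 1 tag, against 62.6% to 92.6% in the other liver samples, and 90.2% of its cells had the sample's top tag. Whether some of its cells belong to another sample was not tested.

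Clusters of liver cells came from scanpy 1.11.5 and igraph 0.11.9, with counts scaled to 10000 per cell, the 2000 most variable genes, 30 components, 15 neighbours and a Leiden resolution of 1.0. Of 22 clusters 20 were named, from 22 marker lists, by at least 3 list members among the 100 leading genes, more than of any other list, with no other list ahead among the top 10 (a list with fewer than 5 members needed 1 there), and the unnamed ones (led by Ccl2 and Ccl7, and by Plet1 and Ear1) held 6.08% of cells. Names mean resemblance only. The conventional dendritic lists were given 1 class name and the cholangiocyte list was read as epithelial after seeing the data. Doublets stayed in, and an alternative left out the 589 cells with the highest doublet scores.

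Counts were summed per sample and tested with edgeR 4.0.16 (quasi-likelihood, TMM, filterByExpr, Benjamini-Hochberg FDR under 0.05). Shares were compared by exact two-sided permutation tests of 70 assignments with scipy 1.17.1. Alternatives were DESeq2 1.42.0, limma 3.58.1 on cell means, other scaling, no filter on low counts, a mitochondrial limit of 10%, other resolutions, a replicate block and each sample left out. The fits were tested on simulated data. Intervals for a count of 0 use 3 counts and cover counting error only.

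The replicate numbers in the labels pair the samples: deviations of same-numbered samples from their group means correlated at 0.32, 0.30, 0.26 and 0.50, and samples of 1 number listed the same tags (those of numbers 3 and 4 were alike). Genes were named by a rule: in each direction the 10 with the largest change among those called, or else the smallest p, with no overlap between groups and a mean of at least 20 CPM, plus list members. For the contrast of tissues the rule was the smallest p and that mean in liver. Genes called only with the block or without positive replicate 2 were named after their values were seen. The members, lists and tests were chosen with earlier results of these data known.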

Additional observations from a re-analysis of the deposited data

Results flagged for a closer look

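In 80 groups of 4 samples, 8 samples lay far from the other 3 of their group, where chance gives about 1 in 20 groups. Kupffer cell-like cells took 80.1% of positive replicate 2 and 0% to 9.83% of the other positive samples. Classical monocyte-like cells took 14.7% of positive replicate 1 and 0% to 1.75% of the others, and basophil or mast-like cells 0.901% of it and 0% of the others. Positive replicate 1 also held Cp at 355 CPM, against 8.12 to 41.4 CPM in the other positive samples.

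T cell-like cells took 9.12% of negative replicate 1 and 6.36% to 6.54% of the other negative samples. The single epithelial-like cell of the negative sort made 0.0789% of negative replicate 4, with none in the others; against 3 samples at 0, as here and for basophil or mast-like cells, a single cell would be marked, so these cases say little. Negative replicate 3 was above the other negative samples for Il2rb, at 67.2 CPM against 29.6 to 35.4 CPM, and for Txk, at 50.9 CPM against 32.7 to 35.5 CPM.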

How the results depend on the processing

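Depth and the number of samples limit these results: positive replicate 4 held 94 cells, and 3 samples against 4 cannot give an exact p under 0.0571, so that the kept-cell difference of -1397.5 lost its call without any 1 sample (-1698.5 to -998.833). With single samples left out, the difference in median UMIs ran from -559.583 to 425.75 (above 0 at 316.5, 215.1 and 425.75 when negative replicate 1, positive replicate 3 or positive replicate 4 was dropped), in median genes from -116 to 292.5 and in percent mitochondrial UMIs from -0.0936 to 0.80. Differences in share ran from -8.11 to 9.36 points for neutrophil-like (below 0 without positive replicate 4 and at -4.11 and -3.91 without negative replicates 1 and 3), from -0.173 to 0.127 for basophil or mast-like (-0.00539 without negative replicate 2) and from -0.0536 to 2.0 for nonclassical monocyte-like cells. The last was -0.344 at resolution 0.5 and -0.409 at 2.0. As cell numbers in edgeR the log2 change was 5.40 (5.30 with the block) for Kupffer cell-like, -3.39 (-3.55) for NK cell-like and 6.24 (6.03) for epithelial-like cells, and -3.14 for classical monocyte-like cells with the block. With single samples left out, a choice made after seeing the data, the log2 change in numbers ran from 3.32 to 6.44 for Kupffer cell-like, from -4.17 to -1.55 for classical monocyte-like, from -0.46 to 0.45 for neutrophil-like (-0.19 and -0.18 without negative replicates 1 and 3) and from -0.0258 to 0.93 for nonclassical monocyte-like cells. List medians without positive replicates 2 and 4 were -2.05 for NK cell, -1.38 for T cell, 2.53 for Kupffer cell and 2.06 for endothelial genes.

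Over all cells the number of genes called was 0 to 61 with single samples left out, 563 by DESeq2 and 3 without positive replicates 2 and 4. Within classes, single samples left out gave 0 to 1 for B cell-like and classical monocyte-like, 0 to 26 for granulocyte precursor-like and 0 to 87 for nonclassical monocyte-like cells. For the last the count of 32 was 62 by DESeq2, 419 with no filter on low counts, 0 without cells holding stromal or epithelial markers and 0 without samples numbered 2. Without the filter B cell-like cells gave 62, endothelial-like 26, granulocyte precursor-like 71 and neutrophil-like 2. The replicate block gave 4, 8 and 3 for B cell-like, endothelial-like and neutrophil-like cells and, at 10 cells a sample, 4, 7 and 1 for classical monocyte-like, T cell-like and Kupffer cell-like cells. DESeq2 gave 1 for B cell-like and 1 for T cell-like cells. Liver against the other tissues gave 0 to 6, 1 with the block and 18 by DESeq2. The block took the count of nonclassical monocyte-like cells from 32 to 41 and, beyond the counts given here, moved none by over 1.5 times. Fits that left a class with 1 positive sample take the spread from the negative samples. Within classes, only numbers with both sorts inform the difference in a block fit. Where samples of a class are missing, such a fit has little left to measure the spread. The cause of these changes was not tested, and in 418 other cases a comparison kept its direction and its side of the threshold.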

Other observations

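Of the 2 clusters left unnamed, the larger, led by the chemokines Ccl2 and Ccl7 with Spp1 and Pf4, had 683 cells and took 7.35% ± 5.62 of positive and 5.36% ± 4.04 of negative cells (SD, n = 4 each, exact permutation p = 0.543). The smaller, led by Plet1 and Ear1, had 33 cells and took 0.527% ± 0.628 of positive and 0.0772% ± 0.0893 of negative cells (n = 4 each, exact permutation p = 0.343).

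Of the 830 Kupffer cell-like cells of positive replicate 2, 106 (12.8%) held at least 5 UMIs over at least 3 genes of the endothelial list, against 2 of 74 in positive replicate 1, 1 of 73 in positive replicate 3, 2 of 18 in negative replicate 2 and 1 of 23 in negative replicate 3. Depth differed, with median UMI counts of 6279.5 in positive replicate 2 and 2149 to 3199 in the other samples.

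Elane and Mpo, granule enzymes of granulocyte precursors, were at 1709 and 912 CPM over all cells of positive replicate 3. Elane was at 11.3 to 132 CPM and Mpo at 6.22 to 116 CPM in the other 7 liver samples.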
